A study of Mus musculus with 6 samples.

Results

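The genes described here encode the enzymes that attach prenyl lipids to proteins and that finish the modified C-terminus. They are Fnta, Fntb, Pggt1b, Rabggta, Rabggtb, Chm, Chml, Rce1, Icmt and Zmpste24. They were chosen by name for their role and not by a measured value, although earlier results of these data were known. They make up 10 of the 35427 genes that could be read from the deposited table. RNA was sequenced from bone marrow-derived macrophages (BMDMs), which had been grown with macrophage colony-stimulating factor from femoral marrow of C57BL/6 mice. The 3 Ctrl libraries came from BMDMs without treatment and the 3 ZA libraries from BMDMs taken 12 h after stimulation with zoledronic acid (ZA), a nitrogen-containing bisphosphonate. The study's wild-type mice were female and 6 weeks old when obtained. The age at which marrow was taken for these cultures, the concentration of ZA and whether the cultures came from separate mice are not given in the sources used here. The p-values therefore measure only the spread between these libraries, which may be technical.

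Protein prenylation joins a farnesyl or geranylgeranyl group to a cysteine near the end of a protein and lets that protein sit on membranes. Farnesyltransferase (FTase) and GGTase-I, the type that adds geranylgeranyl groups, share the alpha subunit Fnta and recognise a C-terminal CAAX motif (cysteine, a pair of aliphatic residues and a variable last residue) through the beta subunits Fntb and Pggt1b. Rab GGTase, made of Rabggta and Rabggtb, modifies Rab GTPases that the escort proteins encoded by Chm and Chml present to it. After the lipid is attached to a CAAX protein, the protease Rce1 removes the last residues and Icmt methylates the exposed cysteine, while Zmpste24 is the protease needed to mature prelamin A. Nitrogen-containing bisphosphonates are known to inhibit farnesyl diphosphate synthase, the enzyme that makes the farnesyl donor for these reactions. The geranylgeranyl donor is made by Ggps1. The comparison asks whether the transcripts of the enzymes that use those donors differed between ZA-treated and Ctrl BMDMs.

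The genes differ in the sequence in front of them, and windows of a pair of subunits and a pair of alternative escort proteins are shown to let the letters be compared. RefSeq windows on GRCm38.p6, from 250 bases before to 50 bases after a transcription start, were found for 8 of the 10 genes, in 12 windows. The GC content of these windows ranged from 40.33% for Chm and Chml to 76.0% for Icmt, against a median of 52.67% over the 32851 windows of all genes. The letters GGGCGG (the GC box, searched on both strands) stood in 6 of the 12 windows and in 35.7% of all windows. The CCAAT letters were in 3 of the 12 and in 37.4% of all windows, and TATAAA was in 0 of the 12 and in 13.6% of all. The letters TCACNCCAC, the core of a sterol regulatory element, were in 0 of the 12 windows, near the 1.24% of all windows. The windows of Idi1 and Ggps1, genes of lipid donor supply described below, held 0 of these letters as well. No window was found for Fnta, Pggt1b, Fdps or Fdft1. Read 5′ to 3′ in the direction of transcription, the Rab GGTase subunits are shown with GC boxes in capitals, each by the window that holds the most of them, and the escort proteins have none in their windows:
Rabggta, chr14:55721874-55722173, minus strand: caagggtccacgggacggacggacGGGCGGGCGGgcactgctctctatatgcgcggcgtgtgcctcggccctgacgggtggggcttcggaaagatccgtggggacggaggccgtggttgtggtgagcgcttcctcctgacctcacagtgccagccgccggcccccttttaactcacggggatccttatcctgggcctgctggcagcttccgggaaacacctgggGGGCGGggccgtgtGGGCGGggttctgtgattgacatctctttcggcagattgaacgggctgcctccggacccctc
Rabggtb, chr3:153912917-153913216, minus strand: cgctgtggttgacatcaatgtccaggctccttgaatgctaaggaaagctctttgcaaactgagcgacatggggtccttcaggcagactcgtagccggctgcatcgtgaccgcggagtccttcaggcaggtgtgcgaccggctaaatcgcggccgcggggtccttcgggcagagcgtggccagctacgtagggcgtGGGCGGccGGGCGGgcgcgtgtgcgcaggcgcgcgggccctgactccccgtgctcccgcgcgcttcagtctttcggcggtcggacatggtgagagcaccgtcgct
Chm, chrX:113185466-113185765, minus strand: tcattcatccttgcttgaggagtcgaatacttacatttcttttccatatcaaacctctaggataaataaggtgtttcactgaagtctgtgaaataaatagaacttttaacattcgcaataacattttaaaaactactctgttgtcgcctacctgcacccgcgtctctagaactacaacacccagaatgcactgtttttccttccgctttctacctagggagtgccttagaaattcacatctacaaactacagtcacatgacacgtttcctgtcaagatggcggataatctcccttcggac
Chml, chr1:175688304-175688603, minus strand: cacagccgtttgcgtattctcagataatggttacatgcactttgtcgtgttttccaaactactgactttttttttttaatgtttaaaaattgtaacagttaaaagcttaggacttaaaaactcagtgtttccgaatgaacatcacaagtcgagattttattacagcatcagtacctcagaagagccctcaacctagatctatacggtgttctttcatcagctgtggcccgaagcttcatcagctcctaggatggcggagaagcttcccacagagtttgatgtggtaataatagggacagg
The Rabggta window holds 4 GC boxes, which overlap in 1 place, and the Rabggtb window holds 2, at 67.0% and 66.33% GC. These windows were picked for their GC boxes. The other Rabggta windows, at 61.0% and 59.67% GC, and the other Rabggtb window, at 43.0% GC and close to the escort proteins, hold 0. These matches are descriptions of the letters and not of bound factors, and they are set here beside RNA levels only.

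All 10 genes were read in every library and passed the filter of a mean FPKM of at least 1, so none was left out of the test. FPKM is the number of fragments scaled by the length of the gene and by the total of the library, so that levels of different genes can be compared. Fnta had the highest mean over the 6 libraries, 28.5 FPKM, followed by Zmpste24 at 22.5 and Rabggtb at 19.7. Rce1 stood at 12.02, Rabggta at 10.6 and Icmt at 9.35 FPKM. Pggt1b at 5.16, Chm at 3.91, Fntb at 2.43 and Chml at 1.59 FPKM were the lowest. The highest mean was 17.9 times the lowest, and each gene lay above the next one in this order in 6 of 6 libraries. The ranges of neighbours overlapped over the libraries only for Rabggta (9.98 to 11.04 FPKM) and Icmt (8.57 to 10.01 FPKM). Among the 9800 genes tested, the mean of Fnta was at percentile 79.7, that of Icmt at percentile 51.0 and that of Chml at percentile 6.96. Chm and Chml encode closely related proteins, and how the authors assigned reads shared by such copies is not given in the sources used here.

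**Figure D1:**
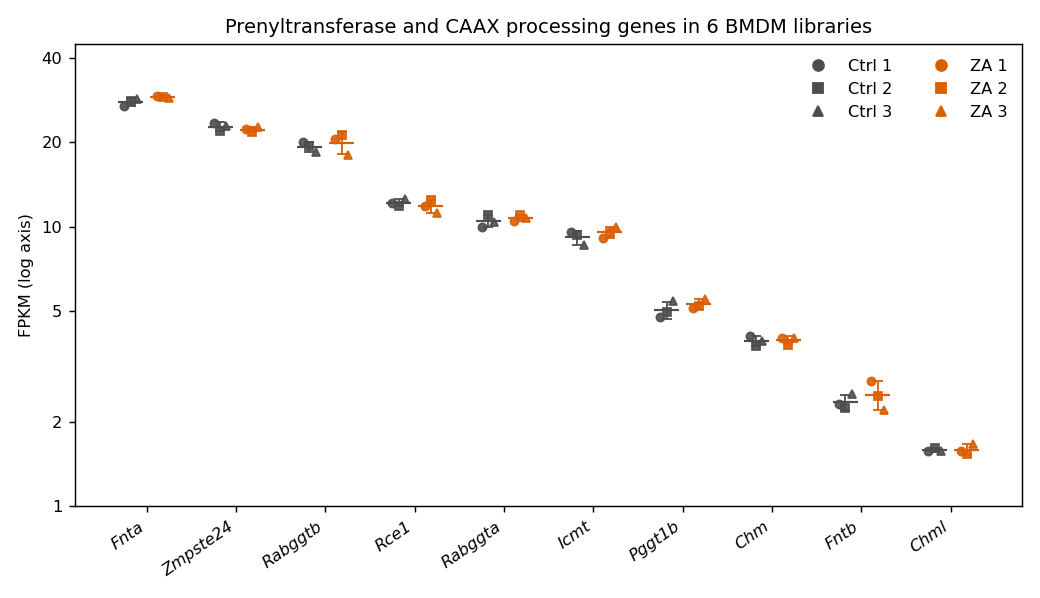
FPKM (log axis) of the 10 genes in each of the 6 libraries, with Ctrl in grey and ZA in orange, symbols for replicates 1 to 3, and a line with a bar for the mean ± SD of each group (n = 3). The order from Fnta (27.0 to 29.3 FPKM) down to Chml (1.54 to 1.67 FPKM) was the same in every library, and within a gene the groups overlapped except for Fnta.

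None of the 10 genes passed the test between ZA-treated and Ctrl BMDMs, and the measured differences were small. The means of the ZA libraries differed from Ctrl by -2.93% (Rce1) to 6.09% (Fntb). In limma on log2(FPKM + 1) with Benjamini-Hochberg adjustment over 9800 genes, 0 of the 10 genes had an adjusted p-value under 0.05, as did 0.367% of all genes (0.204% higher and 0.163% lower in ZA). Before adjustment 0 of 10 had a p-value under 0.05, whereas 12.3% of all genes (7.50% higher and 4.85% lower in ZA) were at that level. With limma's voom on recovered fragment numbers, 0 of the 10 passed either threshold as well. The mean of ZA was above that of Ctrl for 8 of the 10 genes, as it was for 56.9% of all genes, and after centring each library on its median this count became 6. Their log2 fold changes had a median of 0.039, against 0.010 over all genes tested, and the median absolute value was 0.041 for both. The median of the 10 genes became 0.012 without Ctrl 3 and likewise 0.012 without ZA 1. The 95% intervals of the 10 genes together reached from 0.907-fold (Rce1) to 1.16-fold (Fntb) on the scale of FPKM + 1, so a difference beyond these bounds lay outside the interval of every gene. This scale understates the change of genes with low FPKM such as Chml and Fntb.

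The CAAX prenyltransferases were described by 3 genes. Fnta, the shared alpha subunit, measured 27.0, 28.2 and 28.7 FPKM in Ctrl 1, 2 and 3, and 29.3, 29.0 and 28.9 FPKM in ZA 1, 2 and 3. All ZA libraries of Fnta were above all Ctrl libraries, with ZA 3 just above Ctrl 3. It was the only one of the 10 genes with groups that did not overlap, as in 18.1% of all genes tested (11.4% higher and 6.76% lower in ZA). Its log2 fold change of 0.055 (SE 0.030, 95% interval -0.013 to 0.12) had an adjusted p of 0.487 in limma. The depth was not small here, since 2165 to 2343 fragments of a library lay on Fnta.

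Fntb, the beta subunit of farnesyltransferase, measured 2.32, 2.24 and 2.51 FPKM in Ctrl and 2.81, 2.48 and 2.22 FPKM in ZA. ZA 1 was the highest and ZA 3 the lowest of the 6 libraries, so the ZA group spanned the whole Ctrl group. The log2 fold change was 0.058 (SE 0.068, 95% interval -0.099 to 0.21), with an adjusted p of 0.770 in limma. Fntb rested on 276 to 343 fragments a library, the fewest of the 10 genes, and its interval was the widest. The standard deviation over the ZA libraries was 11.8% of the mean, against 5.78% from counting error alone.

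Pggt1b, the beta subunit of GGTase-I, measured 4.74, 4.94 and 5.42 FPKM in Ctrl and 5.14, 5.21 and 5.53 FPKM in ZA. The groups overlapped, because Ctrl 3 was above ZA 1 and ZA 2. Its log2 fold change of 0.062 (SE 0.051, 95% interval -0.056 to 0.18) had an adjusted p of 0.664 in limma. It was the largest of the 10 genes on this scale, while with a pseudocount of 0.1 Fntb (0.077) was above Pggt1b (0.073). Pggt1b transcripts were 2.13 ± 0.0815 times those of Fntb in Ctrl and 2.14 ± 0.332 times in ZA (mean ± SD, n = 3, exact permutation test, two-sided, p = 1). The ratio spread more among ZA libraries, at 1.83, 2.10 and 2.49, than among Ctrl libraries, at 2.04, 2.20 and 2.16. Fnta exceeded the sum of its partner subunits 3.79 ± 0.161 times in Ctrl and 3.73 ± 0.0437 times in ZA (exact permutation test, two-sided, n = 3 a group, p = 0.6). With 3 libraries against 3, this test cannot go below 0.1.

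Neither subunit of Rab GGTase passed the test. Rabggta, the alpha subunit, measured 9.98, 11.02 and 10.4 FPKM in Ctrl and 10.5, 11.04 and 10.8 FPKM in ZA. The ZA values lay within or just above the Ctrl range, and the log2 fold change was 0.037 (SE 0.041, 95% interval -0.059 to 0.13, adjusted p = 0.762 in limma). Rabggtb, the catalytic beta subunit, measured 20.1, 19.4 and 18.5 FPKM in Ctrl and 20.7, 21.3 and 17.99 FPKM in ZA. ZA 1 and ZA 2 were above every Ctrl library, while ZA 3 was below them all. The log2 fold change of Rabggtb was 0.042 (SE 0.060, 95% interval -0.097 to 0.18, adjusted p = 0.818 in limma). Without ZA 3 it became 0.11, with an unadjusted p of 0.0291 and an adjusted p of 0.455 in limma. The ratio of Rabggta to Rabggtb was 0.543 ± 0.0397 in Ctrl and 0.542 ± 0.0502 in ZA (exact permutation test, two-sided, n = 3 a group, p = 1).

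The escort proteins, which hand Rab GTPases to the transferase and deliver them to membranes, gave the smallest differences. Chm measured 4.05, 3.76 and 3.89 FPKM in Ctrl and 4.01, 3.77 and 4.003 FPKM in ZA. Its values interleaved between groups, and the log2 fold change was 0.0080 (SE 0.043, 95% interval -0.092 to 0.11, adjusted p = 0.960 in limma). Chml measured 1.57, 1.62 and 1.58 FPKM in Ctrl and 1.58, 1.54 and 1.67 FPKM in ZA. The ZA libraries held both the lowest and the highest Chml value, with a log2 fold change of 0.0030 (SE 0.047, 95% interval -0.11 to 0.11, adjusted p = 0.990 in limma). The signs of both genes turned negative after centring on the median (log2 fold change -0.0043 for Chm and -0.0093 for Chml). Chm transcripts were 2.45 ± 0.126 times those of Chml in Ctrl and 2.46 ± 0.0710 times in ZA (exact permutation test, two-sided, n = 3 a group, p = 1).

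**Figure D2:**
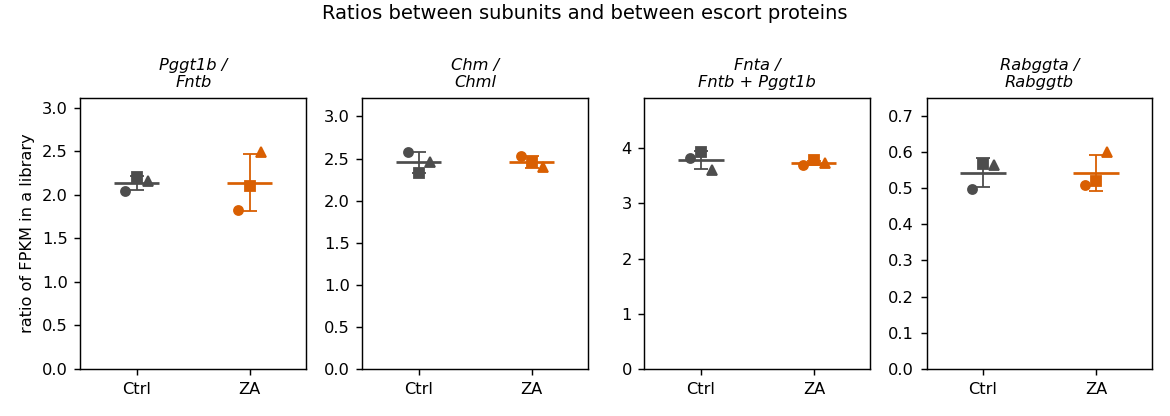
Ratios of FPKM between subunits and between the alternative escort proteins, in each library (symbols for replicates 1 to 3) with the mean ± SD of Ctrl (grey) and ZA (orange), n = 3 a group, on axes that start at 0. The group means lie nearly level in every panel (Pggt1b to Fntb 2.13 and 2.14, Chm to Chml 2.45 and 2.46), and the ZA spread of the first ratio, 1.83 to 2.49, contains the Ctrl spread.

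The genes that process the C-terminus after prenylation went in both directions. Rce1, the CAAX endopeptidase, measured 12.2, 11.9 and 12.5 FPKM in Ctrl and 11.8, 12.5 and 11.2 FPKM in ZA. ZA 1 and ZA 3 were below all Ctrl libraries and ZA 2 lay among them, with a log2 fold change of -0.041 (SE 0.043, 95% interval -0.14 to 0.059, adjusted p = 0.747 in limma). Icmt, the methyltransferase, measured 9.56, 9.34 and 8.57 FPKM in Ctrl and 9.14, 9.46 and 10.01 FPKM in ZA. Its lowest value was Ctrl 3 and its highest ZA 3, the others were mixed, and the log2 fold change was 0.054 (SE 0.049, 95% interval -0.058 to 0.17, adjusted p = 0.696 in limma). Zmpste24, the prelamin A protease, measured 23.5, 21.9 and 22.9 FPKM in Ctrl and 22.3, 21.7 and 22.7 FPKM in ZA. The groups overlapped, and the log2 fold change was -0.032 (SE 0.034, 95% interval -0.11 to 0.046, adjusted p = 0.746 in limma). It had the most fragments of the 10 genes, 3161 to 3429 a library.

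The libraries of one group differed among themselves by more than counting error for most of these genes. The standard deviation in percent of the mean ranged from 1.42% (Chml) to 7.03% (Pggt1b) in Ctrl and from 0.801% (Fnta) to 11.8% (Fntb) in ZA. It was above the counting error for 8 of 10 genes in Ctrl and for 7 of 10 in ZA. The same share over all genes was not computed. Over all genes tested, a chi-square of fragment numbers between paired libraries of one group averaged 3.52 to 9.73 a gene, also above counting error. The excess is therefore not shown to be particular to these genes. ZA 3 gave the lowest value of its group for Fnta, Fntb, Rabggtb and Rce1 and the highest for Pggt1b, Chml, Icmt and Zmpste24. Across the 6 libraries, 20 of the 45 pairs of genes had a correlation above 0, from r = 0.79 for Chm with Zmpste24 to r = -0.90 for Rabggta with Zmpste24. These correlations describe 6 points that share library and depth. Fnta had the largest moderated statistic of the 10 genes, and the genes tested with the most similar pattern to it over the 6 libraries were Hmgb2 (Pearson's r = 0.994), Klc2 (0.988) and Zfp954 (0.987). These 3 were picked for the highest r among all genes tested, so high values follow from the picking. Shared control was not tested. Summed over the 10 genes, FPKM came to 115.0, 114.3 and 115.0 in Ctrl and to 117.3, 118.1 and 115.0 in ZA. The sum of ZA 3 lay within the Ctrl values. Its share by gene was led by Fnta, at 24.4 ± 0.777% in Ctrl and 24.9 ± 0.273% in ZA (mean ± SD, n = 3).

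Of the 4 genes that supply or draw on the lipid donors, 2 rose with ZA at an adjusted p under 0.05, beside 0.204% of all genes. At the unadjusted level 3 of 4 were higher and 0 lower, beside 7.50% and 4.85% of all genes. Fdps, farnesyl diphosphate synthase, measured 30.9, 30.2 and 30.4 FPKM in Ctrl and 37.3, 38.2 and 42.8 FPKM in ZA. Fdps rose with ZA by 0.36 on the log2 scale (SE 0.048, 95% interval 0.25 to 0.47, adjusted p = 0.0453 in limma). Idi1, isopentenyl diphosphate isomerase, measured 5.92, 5.65 and 6.56 FPKM in Ctrl and 8.41, 7.86 and 9.23 FPKM in ZA, and rose by 0.43 (SE 0.065, adjusted p = 0.0487 in limma). Both calls were close to the threshold. Fdps kept an adjusted p under 0.05 in 8 of 14 alternative settings and Idi1 in 4 of 14, with highest values of 0.231 and 0.238, and the direction was the same in all of them. Fdft1, squalene synthase, measured 1.93, 1.99 and 1.98 FPKM in Ctrl and 2.29, 2.51 and 2.60 FPKM in ZA. It had a log2 fold change of 0.22 (adjusted p = 0.113 in limma). The log2 ratio of its mean FPKM was 0.33, since FPKM + 1 understates low genes. Fdft1 had an adjusted p under 0.05 in 1 of 13 alternative settings, limma's voom (adjusted p = 0.0192), and the direction was the same in all. Ggps1, which makes geranylgeranyl diphosphate, measured 3.28, 3.31 and 3.44 FPKM in Ctrl and 2.86, 3.17 and 3.21 FPKM in ZA, with a log2 fold change of -0.092 (adjusted p = 0.480 in limma). Set against the summed FPKM of the 10 prenylation genes, Fdps stood at 26.8, 26.4 and 26.4% in Ctrl and at 31.8, 32.4 and 37.2% in ZA. This comparison is a description, since the rise of Fdps was known when the genes were set side by side.

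**Figure D3:**
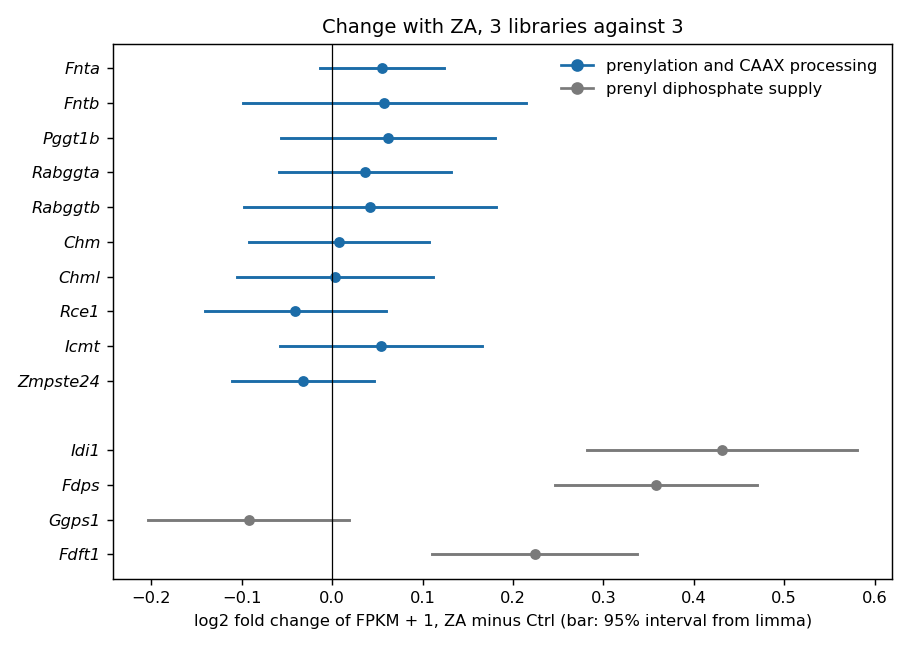
The log2 fold change of FPKM + 1 (ZA minus Ctrl, n = 3 a group) with its 95% interval from limma, for the 10 prenylation and CAAX processing genes (blue) and the 4 genes that supply or draw on prenyl diphosphates (grey). All blue intervals contain 0, and the intervals of Fdps and Idi1 begin at 0.25 and 0.28. With FPKM + 1 the change of low genes such as Fntb is understated.

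Carriers of proteins with a prenyl or other lipid anchor were followed as a list of 9 genes, Unc119 and Unc119b included. Of the 9 carriers, 8 passed the filter. Of these, 1 was higher at an unadjusted p under 0.05 and 0 were lower, and 0 had an adjusted p under 0.05, a count of 1 in 8 that is near the 12.3% of all genes. That gene was Pde6d, a solubilising factor for farnesylated proteins, at 11.6, 12.5 and 11.7 FPKM in Ctrl and 13.5, 12.8 and 12.98 FPKM in ZA (log2 fold change 0.12, adjusted p = 0.258 in limma). Arhgdia, a GDP dissociation inhibitor, measured 476.3, 494.1 and 478.1 FPKM in Ctrl and 466.8, 474.4 and 472.7 FPKM in ZA. Its log2 fold change was -0.035 (adjusted p = 0.550 in limma). In 1 of the 8 carriers (Pde6d) all ZA libraries were above all Ctrl libraries, and in 1 (Arhgdia) all were below. Over all genes tested these shares were 11.4% and 6.76%. Rap1gds1, a chaperone of prenylated small GTPases, had a log2 fold change of 0.048 (adjusted p = 0.570 in limma). Among 10 other prenylation and lipid anchor enzymes, 9 passed the filter and 0 were past an unadjusted p of 0.05. The 3 with the largest statistics were the Ras palmitoyltransferase subunit Zdhhc9 (log2 fold change 0.060), the depalmitoylase Abhd17c (0.060) and the prenylcysteine oxidase Pcyox1 (-0.039), with adjusted p-values from 0.509 to 0.551 in limma. Ptar1, a further gene of the alpha subunit family, fell below the filter at 0.551 to 0.816 FPKM.

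The proteins that these enzymes modify were followed as lists of CAAX substrates. Of 68 genes for CAAX proteins, 54 passed the filter, and 4 were higher and 4 lower at an unadjusted p under 0.05, or 8 of 54 beside 12.3% of all genes. At an adjusted p under 0.05 there were 0 of 54, and their median log2 fold change was -0.011. In the Ras family 1 of 14 genes was higher and 0 lower at the unadjusted level, beside 7.50% and 4.85% of all genes. It was Rras, at 25.4, 26.4 and 25.3 FPKM in Ctrl and 28.5, 29.1 and 28.9 FPKM in ZA, with a log2 fold change of 0.16 (SE 0.027, adjusted p = 0.0701 in limma). Rhebl1 (0.17) and the mTORC1 activator Rheb (-0.068) had adjusted p-values of 0.414 and 0.419 in limma.

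Of 7 G protein gamma subunits 0 were higher and 2 lower at the unadjusted level, beside 7.50% and 4.85% of all genes. Gng11 measured 16.1, 16.3 and 15.5 FPKM in Ctrl and 14.1, 14.04 and 13.9 FPKM in ZA, with a log2 fold change of -0.18 (SE 0.030, adjusted p = 0.0701 in limma). Gng12 had -0.059 (adjusted p = 0.394) and Gng7, not past the unadjusted level, had 0.10 (adjusted p = 0.548). Of 18 other CAAX proteins 0 were past the unadjusted level, and those with the largest statistics were Ykt6 (-0.064), the lamin Lmnb1 (-0.12) and the phosphatase Ptp4a1 (-0.073), with adjusted p-values from 0.405 to 0.496 in limma.

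**Figure D4:**
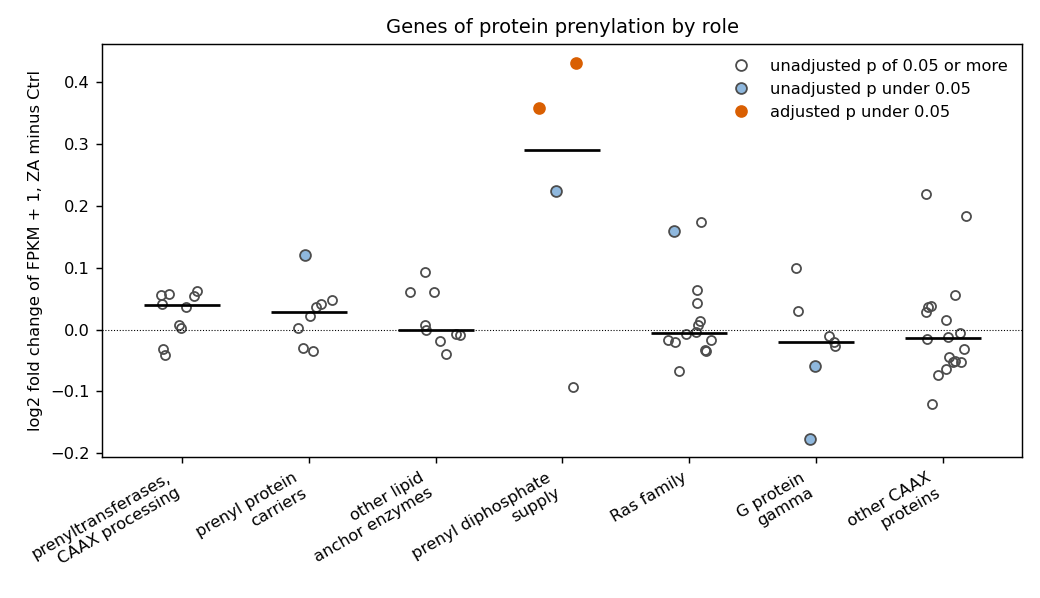
The log2 fold change of FPKM + 1 (ZA minus Ctrl) of the genes that passed the filter, in 7 groups by role, with a line at the median of each list and filled points for genes at an unadjusted (blue) or adjusted (orange) p under 0.05 in limma. The 10 prenylation genes lie between -0.041 and 0.062 with no filled point, and the orange points are Fdps and Idi1.

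Totals were 41230600 to 42155808 fragments a library, with a median of 1395 fragments for a gene tested in a library. The macrophage identity on the labels was checked with 7 marker genes, all detected, which summed to 23403 to 27310 FPKM in Ctrl and 24287 to 27767 FPKM in ZA. Lyz2 alone made up most of each sum, at 20472 to 24406 FPKM in Ctrl and 21272 to 24669 FPKM in ZA. Markers of neutrophils and progenitors (8 of 9 detected, Ly6g at 0) summed to 34.1 to 50.1 FPKM in Ctrl and 31.8 to 36.2 FPKM in ZA, and stromal markers (4 of 4 detected) to 17.8 to 31.6 and 15.9 to 23.0 FPKM. The 3 osteoclast markers summed to 40.1 to 46.6 FPKM in Ctrl and 38.4 to 42.2 FPKM in ZA. These sums came from Ctsk and Acp5, since Calcr was at 0 in Ctrl and at most 0.0062 FPKM in ZA. The 2 endothelial markers summed to 4.02 to 4.61 and 3.91 to 4.23 FPKM. T cell, B cell, dendritic cell and erythroid markers (3 each, all detected) stayed at or below 2.61 FPKM in sum in every library. The summed ranges of the groups overlapped for each of these lists but the 3 T cell markers, at 0.235 to 0.291 FPKM in Ctrl and 0.0955 to 0.213 FPKM in ZA. These T cell sums lay near the floor, with Cd3e at 0 in Ctrl 1 and Cd3d at 0 in Ctrl 2. Taken singly, 5 of the 37 markers were higher in all ZA libraries than in any Ctrl library and 5 were lower, beside 11.4% and 6.76% of all genes tested. The higher ones included the macrophage genes Adgre1 (526 to 538 FPKM in Ctrl, 567 to 593 in ZA), Csf1r (767 to 777 and 825 to 848) and Cd68 (1318 to 1340 and 1343 to 1351), with Kdr and Zbtb46. The lower ones were Elane (2.35 to 2.54 and 1.70 to 2.06), Mpo (2.28 to 2.64 and 1.53 to 2.03) and Ngp (3.59 to 5.42 and 3.32 to 3.58) of neutrophils and progenitors, Cdh5 (0.451 to 0.993 and 0.244 to 0.438) of endothelium and Cd3g of T cells. The part of other cells in the values above was not tested. In such bulk samples fewer cells of a type and less RNA per cell cannot be told apart.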

How the data were processed

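Expression was measured by RNA sequencing in 3 Ctrl and 3 ZA BMDM libraries (150 bp paired-end reads). The authors deposited 1 table of FPKM values. The submitters' processing notes name mm9, and the aligner, counting program and annotation are not given in the sources used here. In this table the symbol and the 6 values run together in all but 11 of 35434 rows. Cuts were placed where the digits allowed and where each value, times gene length and library total, came out as whole fragments, which restored 35427 rows and at least 99.7% of the fragments of each library. The 7 rows left out had more than 1 possible reading. The 11 intact rows were restored identically. The submitters' notes on the library kit name both the VAHTS and a SMARTER kit.

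Groups came from the sample labels. ZA and Ctrl were compared in R 4.3.3 by limma 3.58.1 (lmFit, eBayes with a trend, two-sided), after a pseudocount of 1 and a log2 transform. The 9800 genes whose FPKM averaged 1 or more entered the fit, and p-values were adjusted by Benjamini-Hochberg. Gene ratios were compared with exact permutation tests. The comparison was tested on simulated data. The genes and lists were chosen with earlier results of these data known. Named were all 10 genes, of each other list every gene with an adjusted p under 0.05 and the 3 with the largest moderated statistic, and the 3 genes most correlated with the gene of largest statistic. Ggps1 and Ptar1 were added after their values were seen. 1 group of CAAX substrates enters the counts over all substrates and is otherwise not reported here. Alternatives were a pseudocount of 0.1, no filter, a mean FPKM of at least 5, centring, quantile normalization, no variance trend, the replicate block, voom on recovered fragments and leaving out each library. Python 3.11.15, NumPy 2.4.6, pandas 2.3.3 and Matplotlib 3.10.9 were used.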

Additional observations from a re-analysis of the deposited data

How the results depend on the processing

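In all 14 alternative settings 0 of the 10 prenylation genes had an adjusted p under 0.05 (7 of 10 were tested with a filter of 5 FPKM), and their lowest adjusted p in limma was 0.425. At the unadjusted level the count was 0 in all but 1 setting: leaving out 1 library each gave 0 to 1, the 1 being Rabggtb without ZA 3. Their median log2 fold change of 0.039 became 0.025 with quantile normalization and 0.012 to 0.039 on leaving out 1 library each. The sign turned in at least 1 setting for Fntb, Rabggtb, Chm and Chml, and in none for the other genes. Without 1 library the log2 fold change ranged from -0.0046 to 0.12 for Fntb, from -0.0034 to 0.11 for Rabggtb, from -0.013 to 0.031 for Chm and from -0.018 to 0.020 for Chml. Centring gave -0.0043 for Chm and -0.0093 for Chml. The log2 differences of the ratios, leaving out 1 library each, ranged from -0.12 to 0.10 for Pggt1b to Fntb, from -0.033 to 0.041 for Chm to Chml, from -0.055 to 0.0051 for Fnta to its partners and from -0.079 to 0.041 for Rabggta to Rabggtb. CAAX substrate genes at an unadjusted p under 0.05 numbered 8, and 4 to 12 on leaving out 1 library each. Over all genes the 36 calls became 1 with no filter, 20 with quantile normalization, 1 without a variance trend, 132 with voom, and 0 (without ZA 2) to 25 (without ZA 1) on leaving out 1 library each, while the others gave 1 (without Ctrl 1 and without Ctrl 2), 6 (without Ctrl 3) and 4 (without ZA 3). The cause of these moves was not tested, apart from the fewer samples where a library was left out.

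The departure of libraries from their own group mean was correlated over genes between libraries of equal number. The values of r were 0.284, 0.0393 and 0.280 for numbers 1, 2 and 3, so libraries 1 and 3 departed partly alike in both groups. Whether equal numbers share a source is not stated on the labels and was not tested. The main fit did not use the numbers as pairs. With the replicate block 78 genes were called (41 higher, 37 lower), 32 of them among the 36, and the block called 0 of the 10 prenylation genes, with a lowest adjusted p of 0.458 in limma. Depth limits Fntb and Chml most, at 276 to 343 and 441 to 487 fragments a library. A split of the CAAX substrates by the last residue of the motif was not run, because protein sequences were not used here.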

Other observations

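Levels of the substrates and carriers can be set beside those of the enzymes, since FPKM is scaled by gene length. Rap1b, a Ras family GTPase of adhesion signalling, had a mean of 276.4 FPKM over the 6 libraries. Gng5 led the G protein gamma subunits at 180.6 FPKM. Among the carriers Arhgdia stood at 477.1 FPKM, Gdi2, which extracts Rab GTPases from membranes, at 202.2 FPKM and Arhgdib at 180.8 FPKM. Each of these means was above that of Fnta, the prenylation gene with the highest level at 28.5 FPKM. The log2 fold changes with ZA were -0.021 for Rap1b, -0.027 for Gng5, -0.035 for Arhgdia, 0.022 for Gdi2 and 0.042 for Arhgdib, with adjusted p-values from 0.550 to 0.791 in limma. These 5 genes were chosen for their level within their list after their values were seen.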
